A study of Carassius auratus with 6 samples.

Results

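The carotenoid and lipid carriers of golden-back crucian carp skin were taken as the gene rows whose product name opened with one of 7 families. These were class B scavenger receptors (SR-B), platelet glycoprotein 4 (CD36), the beta,beta-carotene oxygenases, perilipins, apolipoproteins, fatty acid-binding proteins (FABP) and StAR-related lipid transfer proteins (StARD). The rule read product names alone and no measured value, and it found 105 of the 83088 gene rows: 2 SR-B, 2 CD36, 8 oxygenases, 7 perilipins, 47 apolipoproteins, 18 FABP and 21 StARD genes. RefSeq typed 96 of them as protein coding, 7 as pseudogenes and 2 as long non-coding RNA.

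Golden-back crucian carp is a strain of Carassius auratus from rice fields that has golden skin (GO) on its back beside greenish grey skin (GR). Skin mRNA was sequenced in 3 GO and 3 GR libraries, all from female fish, to search for genes that differ with skin colour. Each group carried the replicate numbers 1 to 3. The study's methods describe the age, body site and number of fish for its small RNA libraries, and for these mRNA libraries they are not given in the sources used here, so the p-values measure the spread between libraries.

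Yellow and red carotenoids cannot be made by fish and come from food. They travel in blood inside lipoproteins built on apolipoproteins, enter cells through scavenger receptors such as SR-B1 and CD36, are cleaved by the oxygenases BCO1 (which opens beta-carotene in its middle and yields retinal) and BCO2 (which cuts it off centre), and otherwise dissolve in lipid. In the pigment cells called xanthophores they lie in lipid droplets, whose surface is coated by perilipins, while FABP and StARD proteins move fatty acids, sterols and phospholipids through the watery part of the cell.

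The libraries held 51493103 to 67595616 counts and 41685 to 44553 genes with a count. Muscle markers took 4.95 to 17.8% of the counts in GO and 3.70 to 11.3% in GR, highest in number 1 of each group, and epidermis markers took 0.405 to 2.54% and 0.803 to 2.27%, lowest in number 1 of each group. The 12 tested melanophore marker genes, which mark the black pigment cells, were all lower in GO, and 11 of them passed the threshold used for mRNAs below.

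Skin expressed a minority of the carriers, as it did of all gene rows. No count fell on 29 of the 105 genes in any library, another 34 had counts but a mean under 1 FPKM (read fragments scaled by gene length and library size), and 42 passed that minimum and were tested. Of all 83088 gene rows 26421 passed it, a smaller share. The families differed in this: 6 of 7 perilipins and 4 of 8 oxygenases were tested, against 9 of 47 apolipoproteins, 10 of 18 FABP, 12 of 21 StARD, 1 of 2 SR-B and none of the 2 CD36 genes. Apolipoprotein and FABP transcripts dominated, with a summed level of 734 ± 725 FPKM in GO and 745 ± 346 FPKM in GR for apolipoproteins (SD, n = 3) and of 536 ± 166 and 924 ± 148 FPKM for FABP. The other families together were far lower, led by StARD at 58.8 ± 13.4 and 53.2 ± 12.2 FPKM and perilipins at 29.2 ± 3.27 and 53.1 ± 12.8 FPKM. A single gene, an apoEb gene on chromosome 16, made up 94.7% of the apolipoprotein level.

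**Figure D1:**
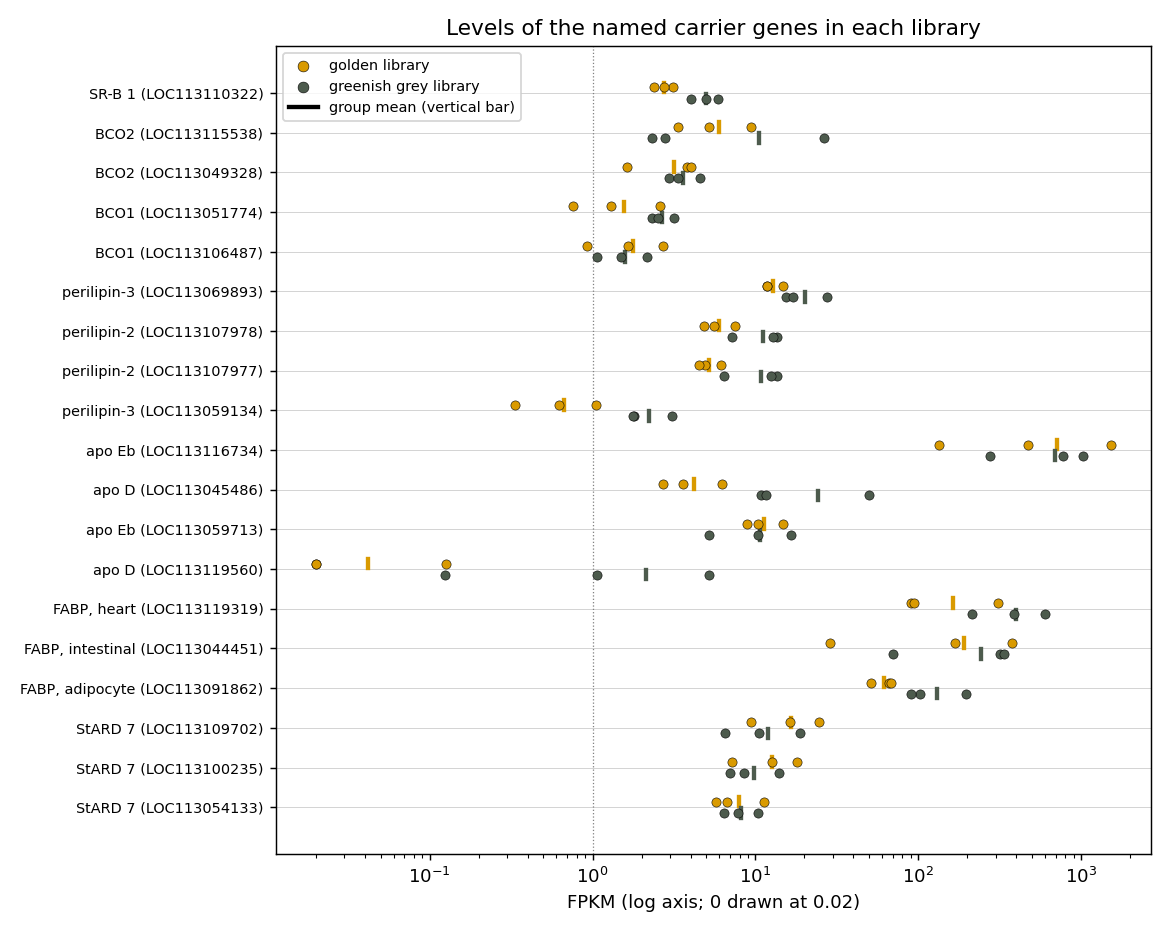
FPKM (log axis, a value of 0 drawn at 0.02) of the 19 named carrier genes in each GO (gold points) and GR (grey-green points) library, with the mean of each group of 3 as a vertical bar. The chromosome 16 apoEb gene reaches 1521 FPKM, while SR-B1 and both BCO1 genes stay below 6 FPKM, and the GO points lie wholly left of the GR points for 6 genes: SR-B1, both perilipin-3 genes, perilipin-2 LOC113107977, apoD LOC113045486 and adipocyte-type FABP LOC113091862.

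To find which carriers differed between the skins, the counts were compared with edgeR (quasi-likelihood test, Benjamini-Hochberg adjustment over 26421 genes). A gene counted as called when its fold was above 2 or below 0.5 with p under 0.05 before adjustment, which is how the study picked mRNAs. In GO, 3 carriers were called lower and none higher: LOC113045486 and LOC113119560, which encode apolipoprotein D, and LOC113059134, which encodes perilipin-3. Without GR number 1 none of these 3 was called, while the perilipin-2 gene LOC113107977 (lower) and the liver-type FABP gene fabp1 (higher) were. The background of this count was 2.77% of all tested genes called (731), with 1.51% lower and 1.26% higher, against 7.14% of the carriers lower. Two-group means show a limit: LOC113119560 and LOC113059134 passed the minimum of 1 FPKM through GR alone. Their means were 0.0417 and 0.670 FPKM in GO and 2.13 and 2.22 FPKM in GR. The apoL3 gene LOC113039152, at 1.48 FPKM in GO and 0.293 FPKM in GR on average, fell under that minimum and was not tested. None of the 26421 genes passed an adjusted p of 0.05 in edgeR (the lowest was 0.283), where 1163 (4.4%) were under 0.05 before adjustment. Of these, 6 were carriers, all lower (14.3%, against 2.43% of all genes), and the adjusted p of every tested carrier was 1.0 in edgeR. Being called below therefore means past a fold and an unadjusted threshold, not past a correction for the number of genes. DESeq2 put 205 genes (0.776%) at an adjusted p under 0.05, none of them a carrier.

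Of the 42 tested carriers, 28 were lower in GO and 14 higher, and their median log2 fold change of GO over GR was -0.32, beside 46.8% of all tested genes lower and a median of 0.03. Those lower include plin2, LOC113119533, LOC113042794, LOC113091728 and LOC113114780, which, like LOC113119560 and LOC113059134, passed the minimum of 1 FPKM through GR alone. Among those higher, LOC113042425 passed it through GO alone. Libraries of the same number deviated together, a check that cannot establish pairing. A fit with the replicate number as a block called 7 carriers, 6 lower and 1 higher, where it called 5.05% of all genes (2.63% lower, 2.42% higher). The added genes were the apoD genes LOC113119533 and LOC113065949 and the heart-type FABP gene LOC113119319, all lower, and the liver-type FABP gene fabp1, which was higher. The lowest adjusted p of a carrier in that fit was 0.269.

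On FPKM, 9 carriers had all 3 GO libraries below all 3 GR libraries and none the reverse, where 7.9% of all tested genes lay below and 2.37% above. The FPKM columns summed to less in GO (533118 to 541257) than in GR (551378 to 622908). The median log2 fold change of all genes on log2(FPKM + 1) was -0.10 in the limma fit. TMM is a normalisation that scales each library by a trimmed mean of its log ratios to a reference library. On TMM-scaled counts, 5.08% of genes lay below and 4.99% above, and again 9 carriers lay below and none above. Both scales shared SR-B1, perilipin genes plin2, LOC113107977 and LOC113059134, and the apoD gene LOC113045486.

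**Figure D2:**
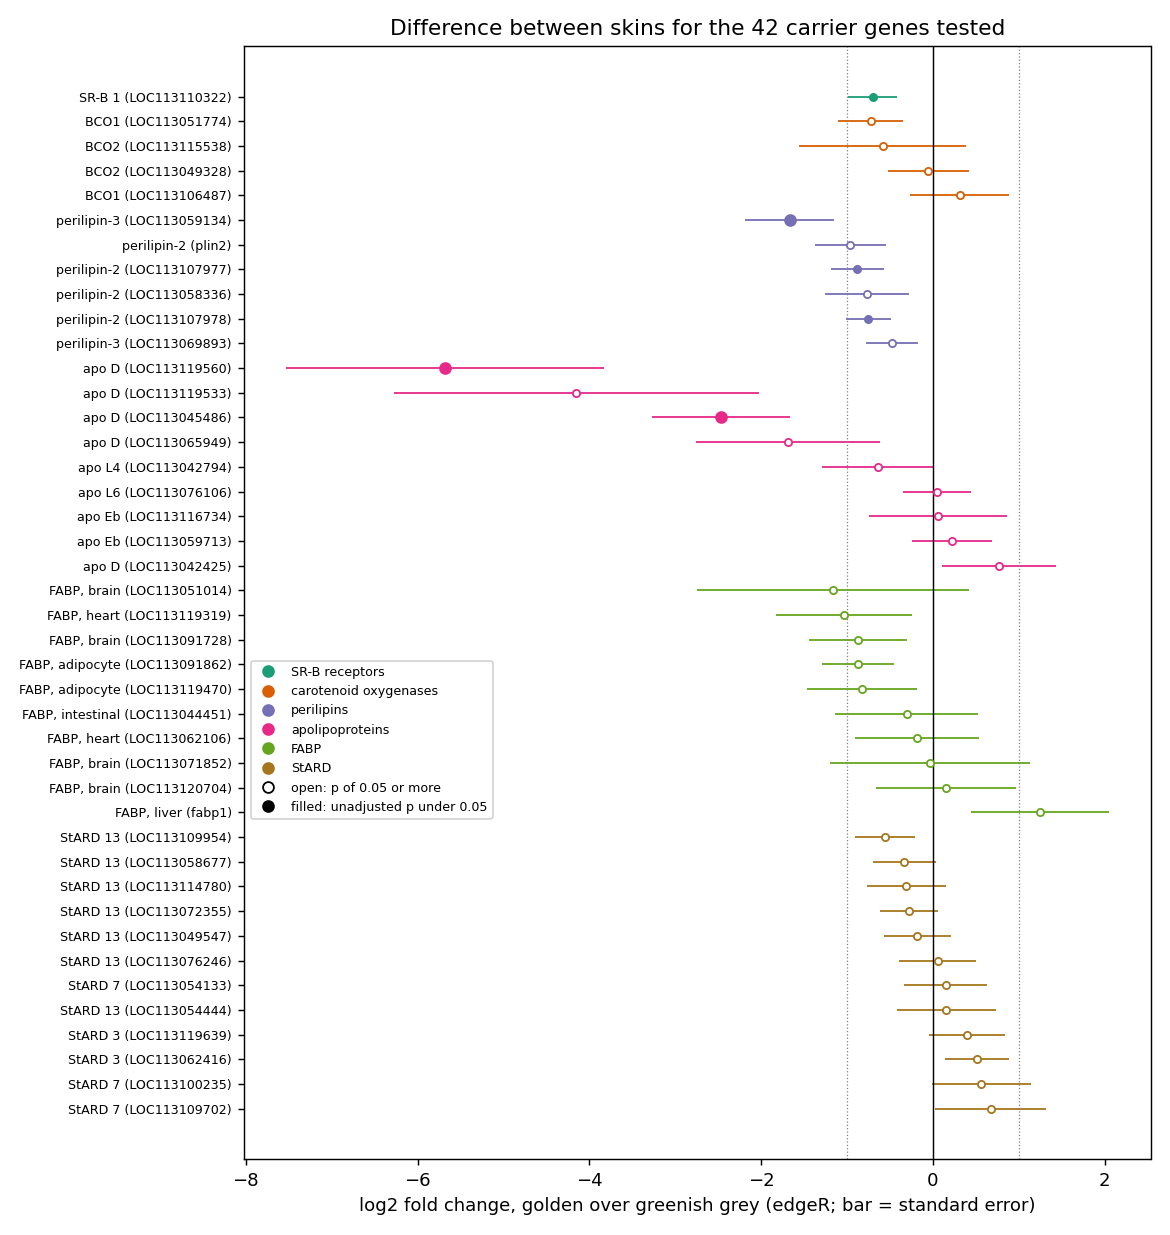
Log2 fold change of GO over GR (edgeR, bars give the standard error) for each of the 42 tested carriers, grouped and coloured by family, filled where the unadjusted p was under 0.05 and larger where the gene was also past 2-fold. All 6 perilipins lie left of 0, 4 of 5 apoD genes lie at -1.69 or lower, and the StARD genes straddle 0 between -0.56 and 0.67.

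SR-B1, the receptor that takes up carotenoids and cholesteryl esters from lipoproteins, was lower in every GO library than in any GR library. Its gene on chromosome 10 (LOC113110322, positions 21455541 to 21470274 of assembly ASM336829v1) stood at 2.39, 3.14 and 2.76 FPKM in GO and 4.94, 5.89 and 4.02 FPKM in GR. The groups did not overlap, on FPKM or on TMM-scaled counts. The log2 fold change was -0.70 ± 0.28 (SE), under the p threshold before adjustment but short of 2-fold. It was no longer under that p when any single library other than GR number 3 was left out (-0.79 to -0.58), and was -0.69 ± 0.19 with the replicate block (edgeR adjusted p = 0.306). The second SR-B1 gene, LOC113054637 on chromosome 35, had no count in any library.

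CD36, a related receptor for long-chain fatty acids, was close to 0. LOC113061863 on chromosome 4 had 17, 0 and 0 counts in GO and 119, 64 and 0 in GR, and LOC113048218 on chromosome 29 had 4, 0 and 4 counts in GO and none in GR. Both stayed below 1 FPKM on average and were not tested.

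The oxygenases were expressed from both BCO1 and BCO2 genes, at 0.764 to 26.3 FPKM over the 4 tested genes, and no gene was called. The BCO1 gene on chromosome 32 (LOC113051774) gave 0.764, 1.31 and 2.60 FPKM in GO and 2.31, 2.53 and 3.19 FPKM in GR. Each GO library was lower than the GR library of its number, but GO number 3 overlapped GR on this scale. Its log2 fold change was -0.72 ± 0.38, and -0.79 ± 0.30 with the replicate block (edgeR adjusted p = 0.374). Without GO number 3 it was called, at -1.11.

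Its presumed duplicate on chromosome 7 (LOC113106487) gave 1.66, 2.72 and 0.920 FPKM in GO and 2.15, 1.5 and 1.06 FPKM in GR, with overlapping groups. Its log2 fold change was 0.31 ± 0.58, and -0.06 without GO number 2. Another BCO1 gene next to it, LOC113106488, stayed at or below 0.194 FPKM.

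For BCO2, the gene on chromosome 15 (LOC113115538) gave 5.18, 9.36 and 3.37 FPKM in GO and 2.78, 26.3 and 2.33 FPKM in GR. One library, GR number 2, held the highest value, and the 2 others of GR were below all of GO. The log2 fold change of -0.58 ± 0.97 accordingly turned to 1.33 without GR number 2 and was 0.13 with the replicate block. The BCO2 gene on chromosome 30 (LOC113049328) gave 3.80, 1.64 and 4.04 FPKM in GO and 4.59, 2.93 and 3.34 FPKM in GR. These groups overlapped, with a log2 fold change of -0.05 ± 0.47 whose sign changed when GO number 2 or GR number 1 was left out (0.26 and 0.25). The other 3 BCO2 genes had means of 0.0863 FPKM or less.

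Perilipins, which coat lipid droplets and govern access of lipases to them, had lower mean levels in GO for every tested gene. All 6 were lower in GO, with log2 fold changes from -1.67 to -0.48 and a median of -0.82. Each of the 6 was lower in GO within all 3 replicate numbers, on FPKM and on TMM-scaled counts, a pattern held by 27.4% and 20.0% of all tested genes. Of these, plin2 and LOC113059134 passed the minimum of 1 FPKM through GR alone, with GO means of 0.728 and 0.670 FPKM. Summed over the 7 genes, the level was 25.8, 32.3 and 29.5 FPKM in GO and 42.3, 67.2 and 49.6 FPKM in GR, so that the highest GO library lay below the lowest GR library.

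Perilipin-3, also known as a cargo partner of mannose 6-phosphate receptors, held the called gene and the most abundant one. LOC113059134 on chromosome 41 (positions 17859669 to 17869636) gave 0.333, 1.06 and 0.621 FPKM in GO and 3.09, 1.80 and 1.78 FPKM in GR. The groups did not overlap and the GO mean was 3.32-fold lower. It had a log2 fold change of -1.67 ± 0.51, called with and without the replicate block. Without GR number 1, which held the highest value, it was -1.22 and not called. LOC113069893, on an unplaced scaffold, gave 11.7, 14.8 and 11.8 FPKM in GO and 15.4, 27.7 and 17.1 FPKM in GR. These values did not overlap on FPKM, though they did on TMM-scaled counts, and the log2 fold change was -0.48 ± 0.31, not called.

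Perilipin-2, the coat protein of droplets in cells other than fat cells, was expressed from 4 genes. The most abundant were a pair on chromosome 8, LOC113107977 and LOC113107978. LOC113107977 gave 4.88, 4.49 and 6.13 FPKM in GO and 6.37, 13.6 and 12.4 FPKM in GR. Its groups did not overlap, and its log2 fold change of -0.88 ± 0.31 was under the p threshold before adjustment but short of 2-fold.

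LOC113107978 gave 4.86, 5.57 and 7.51 FPKM in GO and 7.14, 13.6 and 12.8 FPKM in GR, so that GR number 1 lay just under GO number 3. Its log2 fold change was -0.75 ± 0.26, on the same side of both thresholds. Reads that fit both genes may have been split between them, so the pair is not 2 independent measurements. Each was no longer under that threshold in 4 of the 6 fits that left out 1 library, where the log2 fold changes ran from -1.11 to -0.71 and from -0.95 to -0.61.

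The other perilipin-2 genes were chosen for mention after their values were seen. The gene plin2 on chromosome 15 gave 0.496, 0.958 and 0.730 FPKM in GO and 1.84, 1.30 and 1.4 FPKM in GR, without overlap, at a log2 fold change of -0.96 ± 0.41. LOC113058336 on chromosome 40 gave 3.49, 5.31 and 2.59 FPKM in GO and 8.36, 9.09 and 3.97 FPKM in GR, with overlap, at -0.77 ± 0.49. Perilipin-1, the coat protein of fat cells, was represented by 1 gene with a mean of 0.0972 FPKM.

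**Figure D3:**
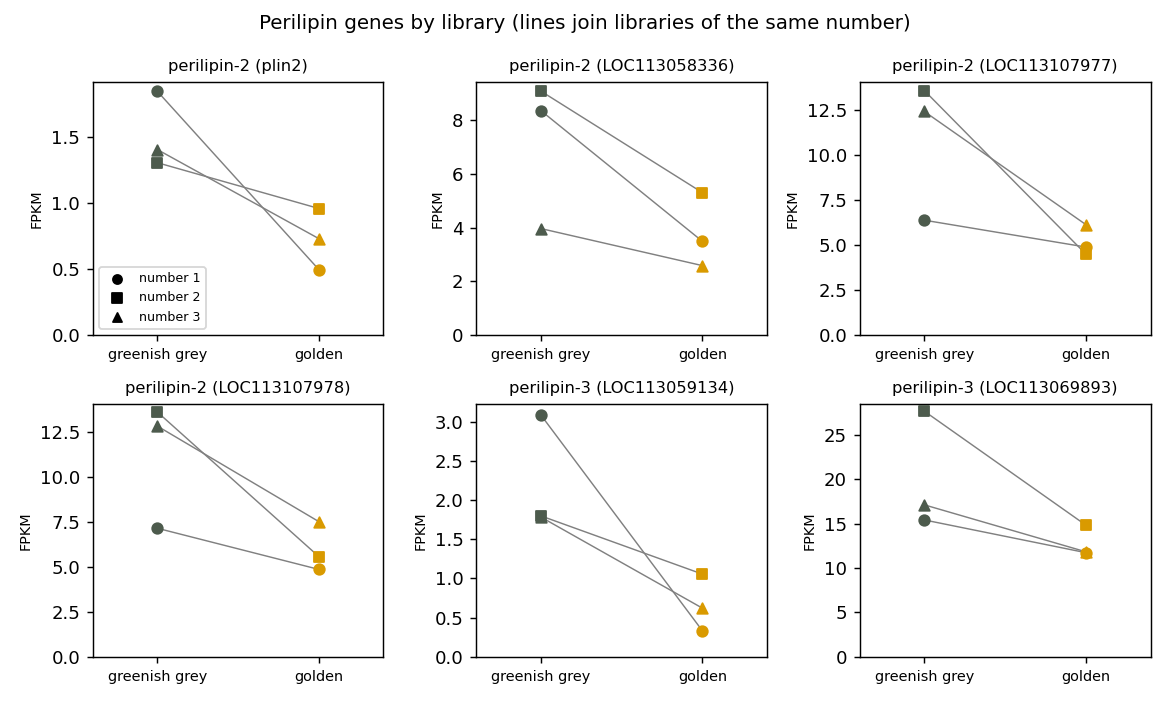
FPKM of the 6 tested perilipin genes in each library, GR on the left and GO on the right of each panel, with a line joining the libraries that carry the same replicate number (circle 1, square 2, triangle 3; vertical axes start at 0 and differ between panels). All 18 lines slope down from GR to GO.

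Several marker lists also had lower shares of counts in GO. The share of counts on the xanthophore markers lay below GR in every GO library (0.00602, 0.00807 and 0.0119% against 0.0162, 0.0124 and 0.0147%), with 10 of 13 tested genes lower. None of these was called lower, and 1 was called higher with and without the block, a sepiapterin reductase gene of pteridine synthesis (LOC113106704, log2 fold change 1.41 ± 0.51 in edgeR). The macrophage share did so too (0.00904 to 0.0166% against 0.0182 to 0.0247%, 7 of 7 lower), as did the endothelium share (0.00902 to 0.0136% against 0.0165 to 0.0215%, 9 of 9 lower). The melanophore share also lay below (0.00248 to 0.00338% against 0.00978 to 0.0254%). For iridophores, the reflecting pigment cells, the shares overlapped (0.00454 to 0.0202% against 0.0173 to 0.0241%), with 8 of 8 tested genes lower and 3 called. All 15 tested fibroblast markers were lower. The muscle, erythrocyte and nerve lists had more tested genes higher than lower. These are shares of raw counts, without TMM scaling. The TMM factor was 0.751 in GO number 1 and 1.15 in GR number 3. Dividing by these factors would put the endothelium share of GO number 1 above that of GR number 3. The adipocyte list overlapped between groups (0.0201 to 0.0612% against 0.0340 to 0.0620%), with 6 of 9 tested genes lower and none called. Among its genes CIDE-3 reached no more than 0.205 FPKM, while summed adiponectin ran from 2.44 to 38.6 FPKM, hormone-sensitive lipase from 6.03 to 8.93 FPKM and complement factor D from 114 to 564 FPKM. Complement factor D, with 15 gene rows, held most of the summed FPKM of the adipocyte list in each library. It made up 114 of 159 FPKM in GO number 1 and 559 of 571 FPKM in GO number 3. The part of these cell types in the perilipin difference was not tested, and in bulk skin fewer cells of a type and less RNA per cell cannot be told apart.

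Apolipoproteins divided into a few expressed forms and many near 0. ApoB-100, apoA and apoM, which are among the forms that build plasma lipoproteins, were near 0. The 10 apoB-100 genes, whose protein is the backbone of very low and low density lipoproteins, had means of at most 0.266 FPKM. The 13 apoA genes, main proteins of high density lipoprotein, had means of at most 0.0944 FPKM, and both apoM genes had no count. Some apoA genes without a count overlap other genes, as given below. Of 46 hepatocyte marker genes, which encode other secreted products of the liver, 28 had no count and 2 were tested. Plasminogen was at 0 FPKM in every library and hemopexin at 0.0199 FPKM or less, whereas summed fetuin-B stood at 4.97 to 11.7 FPKM and serotransferrin reached 10.5 FPKM. The apolipoproteins that skin did express were mainly apoD and apoEb.

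ApoD, a lipocalin that binds small lipids and is secreted by fibroblasts and glia, had 7 genes, of which 5 were tested. Its summed level was steady in GO at 6.84, 7.97 and 7.0 FPKM and higher and more variable in GR at 79.3, 13.5 and 18.9 FPKM. The groups did not overlap, and GR number 1 stood far above both other GR libraries.

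The most abundant apoD gene was LOC113045486 on chromosome 27 (positions 11414231 to 11416253). It gave 3.60, 6.27 and 2.72 FPKM in GO and 49.9, 10.9 and 11.6 FPKM in GR, with no overlap on either scale. The GO mean was 5.75-fold lower, and the log2 fold change was -2.47 ± 0.81, called with and without the replicate block. Without GR number 1 it was -1.17 and without GO number 3 it was -2.16, and in neither case was it called.

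LOC113119560 on chromosome 2 (positions 19430126 to 19431921) was nearly silent in GO. It had 0, 0 and 10 counts in GO and 313, 10 and 82 counts in GR, or 0, 0 and 0.125 FPKM against 5.19, 0.124 and 1.06 FPKM. GO number 3 and GR number 2 were level on FPKM. Its log2 fold change of -5.68 ± 1.86 rests on few counts in GO, and it was not called without GR number 1 (-3.63), without GO number 2 (-5.13) or in limma on log2(FPKM + 1), where it was -1.22. Without GO number 3, which held all the GO counts, the fitted value was -10.24, which depends on the prior count and is no measure of size.

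The pair added by the replicate block behaved alike. LOC113119533, also on chromosome 2, gave 0.310, 0 and 0.586 FPKM in GO and 12.8, 0 and 3.59 FPKM in GR, so that neither skin showed it under number 2. Its means were 0.299 FPKM in GO and 5.47 FPKM in GR, so it passed the minimum of 1 FPKM through GR alone. In edgeR it had a log2 fold change of -4.15 ± 2.12, and -3.72 ± 0.77 in the block fit of edgeR (adjusted p = 0.269). LOC113065949 on chromosome 49 gave 2.27, 1.10 and 0.440 FPKM in GO and 10.4, 1.58 and 2.0 FPKM in GR, with a log2 fold change of -1.69 ± 1.07, and -1.49 ± 0.46 in the block fit of edgeR (adjusted p = 0.325).

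The last of them went the other way. LOC113042425 on chromosome 24 gave 0.664, 0.603 and 3.14 FPKM in GO and 1.01, 0.873 and 0.673 FPKM in GR, with a log2 fold change of 0.77 ± 0.66, and only GO number 3 lay above GR. LOC113046395 and LOC113046397, on chromosome 27, had no count.

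Markers of dermal fibroblasts were, like summed apoD, highest in GR number 1. Their share of counts was 0.316, 0.150 and 0.112% in GO and 0.868, 0.266 and 0.173% in GR, and all 15 tested genes were lower in GO, 1 of them called and 5 with the replicate block. Markers of nerve and Schwann cells took 0.0843, 0.0361 and 0.0346% of counts in GO and 0.0502, 0.0390 and 0.0384% in GR. Of their 8 tested genes 2 were lower in GO and 6 higher, none called. The part of fibroblasts or glia in the apoD difference was not tested. With both libraries numbered 1 left out, a setting chosen after seeing the data, LOC113045486 stood at -1.20 and LOC113119560 at -3.17, neither called, though both were called there with the replicate block (-1.37 and -3.49).

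ApoEb, a fish form of apolipoprotein E that local cells secrete for lipid exchange, was the most abundant carrier and did not separate the skins. LOC113116734 on chromosome 16 (positions 27806762 to 27808978) gave 134, 470 and 1521 FPKM in GO and 277, 776 and 1023 FPKM in GR. The groups overlapped fully, and the number 1 library was lowest and the number 3 library highest in each. The log2 fold change of 0.06 ± 0.80 was -0.26 with the replicate block and ran from -0.95 to 0.49 as single libraries were left out.

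Its counterpart on chromosome 41, LOC113059713, gave 8.86, 14.8 and 10.4 FPKM in GO and 10.4, 16.5 and 5.16 FPKM in GR, also with overlap and a log2 fold change of 0.22 ± 0.47. The chromosome 16 gene was 63.5 times as abundant on average, and the ratio of the pair ran from 15.1 to 146 over the GO libraries and from 26.7 to 198 over the GR libraries. The remaining apoEb gene, LOC113116733, had no count.

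These genes sat in 2 clusters of apolipoprotein genes, 7 on chromosome 16 and 6 on chromosome 41, within which 1 apoEb gene each held nearly all counts. Of the neighbours, apoC-I, a small regulator of lipoprotein enzymes, had low counts: apoc1 gave 0, 0.303 and 3.79 FPKM in GO and 0.387, 0.544 and 0.791 FPKM in GR, and LOC113059715 gave 1.02, 0.730 and 0.305 FPKM in GO and 0, 0.313 and 0 FPKM in GR. The others (apoC-II, apoA-I, apoA-IV and the apoEb gene LOC113116733) had no count in any library, 5 genes on chromosome 16 and 4 on chromosome 41. Some of them overlap on the same strand: LOC113116733 and LOC113116737 lie within LOC113116736, and LOC113059710 lies within LOC113059709. How reads shared by overlapping genes were counted is not given, so no count there need not mean no expression.

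**Figure D4:**
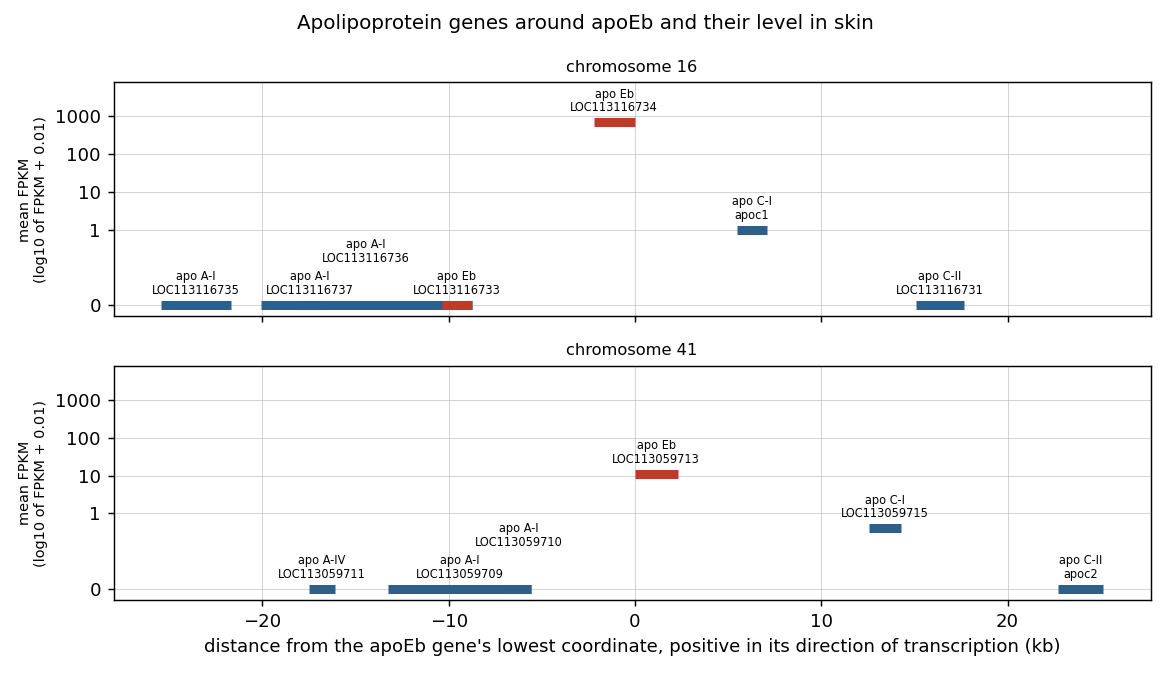
Apolipoprotein genes of the chromosome 16 cluster (upper) and the chromosome 41 cluster (lower), placed by distance in kb from the expressed apoEb gene and by mean FPKM over the 6 libraries (log10 of FPKM + 0.01), apoEb genes in red and others in blue. In each cluster 1 apoEb gene is expressed (700.0 and 11.02 FPKM), an apoC-I gene lies near or below 1 FPKM and the remaining genes lie at 0. Some of the genes at 0 overlap each other.

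A few further apolipoprotein genes carried counts, named here after their values were seen. The apoA-I genes LOC113058252 and LOC113049064 had 12, 12 and 24 counts and 11, 8 and 12 counts in GO and none in GR, which is at least 5.65-fold and 3.94-fold higher in GO against a floor of 3 counts per GR library. Their means were under 0.1 FPKM, so only the fit with no filter tested them, and both passed the threshold there. Neither exceeded 0.260 FPKM in any library. ApoL genes, of a family of intracellular lipid-binding proteins, were low: LOC113042794 (apoL4) and LOC113076106 (apoL6) had log2 fold changes of -0.64 and 0.04. The untested apoL3 gene LOC113039152 gave 2.76, 1.29 and 0.401 FPKM in GO and 0.690, 0.0640 and 0.124 FPKM in GR, higher in GO under each number though the groups overlapped. Another untested apoL3 gene, LOC113041670, went the other way. It had 7, 8 and 0 counts in GO and 39, 19 and 20 counts in GR, without overlap on FPKM or on TMM-scaled counts.

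FABP genes, whose proteins ferry fatty acids in the cytosol, were lower in GO for 8 of 10 tested members, with a median log2 fold change of -0.57 and none called without the block. The type names follow the organ in which mammals were first found to express each form. Their summed level was 457, 424 and 727 FPKM in GO and 848, 1095 and 830 FPKM in GR, without overlap.

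The heart-type gene on chromosome 19, LOC113119319, was the most abundant. It gave 307, 90.7 and 93.7 FPKM in GO and 597, 387 and 214 FPKM in GR, lower in GO under each number, while GO number 1 overlapped GR. The log2 fold change was -1.03 ± 0.79, and -1.27 ± 0.32 in the block fit of edgeR (adjusted p = 0.288), where it was called. It was also called with the muscle share as a covariate (-2.01) and without GO number 1 (-2.17), the library with the largest muscle share.

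Its presumed duplicate on chromosome 44, LOC113062106, followed another order of libraries, with 19.5, 58.5 and 168 FPKM in GO and 31.8, 110 and 147 FPKM in GR, and a log2 fold change of -0.18 ± 0.72. The ratio of the chromosome 19 gene to the chromosome 44 gene was 15.7, 1.55 and 0.557 in GO libraries 1, 2 and 3 and 18.8, 3.52 and 1.46 in GR. It was highest under number 1 in both skins and lower in GO under each number.

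The intestinal-type gene on chromosome 26, LOC113044451, gave 28.6, 169 and 374 FPKM in GO and 70.3, 320 and 335 FPKM in GR. Its groups overlapped, and the log2 fold change of -0.31 ± 0.83 turned to 0.16 without GO number 1. Of the enterocyte markers, sucrase-isomaltase reached 0.242 FPKM and summed villin-1 2.0 FPKM, while intestinal-type alkaline phosphatase gave 1.15, 2.17 and 4.80 FPKM in GO and 3.11, 3.03 and 4.42 FPKM in GR. The last of these was, like the FABP gene, lowest in GO number 1 and highest in GO number 3, but in GR it was lowest in number 2. Summed villin-1 gave 1.15, 2.0 and 0.736 FPKM in GO and 1.44, 1.45 and 0.914 FPKM in GR, lowest in number 3 of each group. Sucrase-isomaltase was highest in GR number 1. The part of gut cells in the FABP level was not tested. The 2 relatives of this FABP gene on chromosome 1 had at most 9 counts in a library.

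This gene, the chromosome 44 heart-type gene, apoEb on chromosome 16 and the brain-type gene LOC113071852 (0.565, 6.0 and 22.5 FPKM in GO, 1.35, 11.7 and 17.1 FPKM in GR) all had their lowest value of each group in the number 1 library. The share of epidermis markers did so as well, at 0.405, 1.47 and 2.54% in GO and 0.803, 2.27 and 1.85% in GR, with 17 of 30 tested marker genes lower in GO. The part of epidermal content in these levels was not tested.

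**Figure D5:**
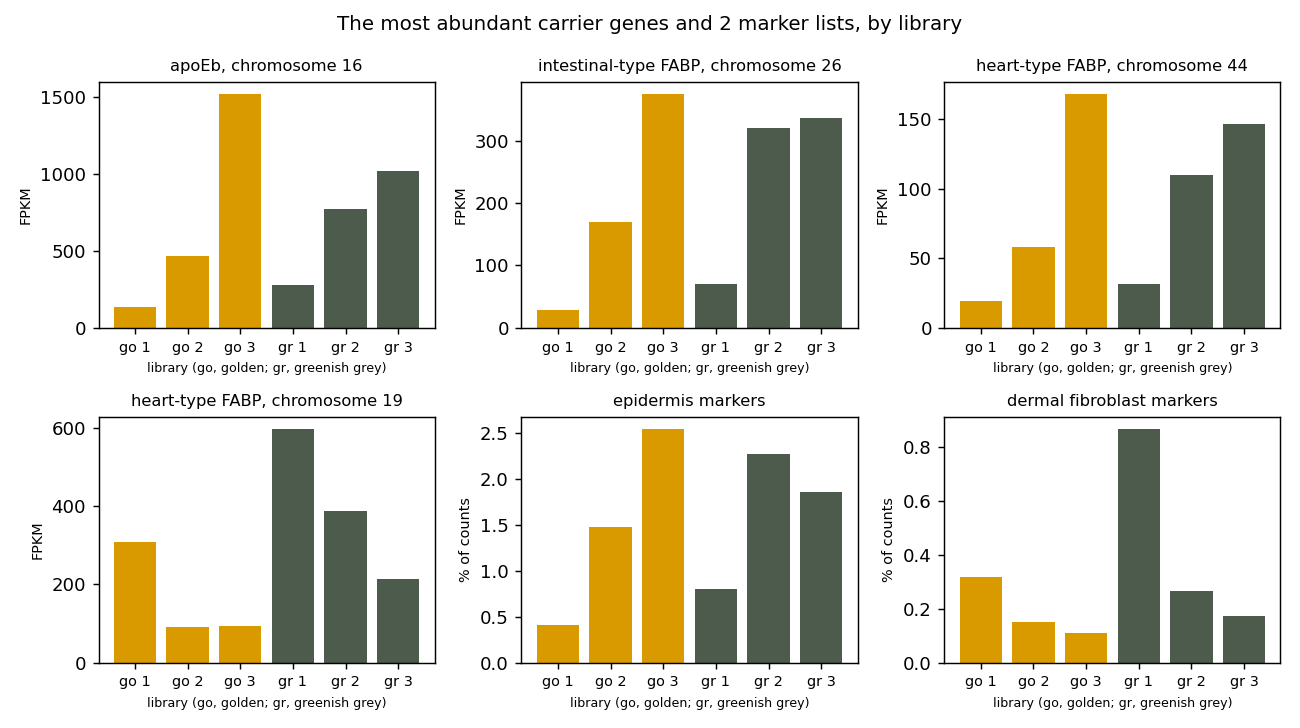
FPKM of 4 abundant carrier genes and the percentage of counts on the epidermis and dermal fibroblast marker lists, 1 bar per library (go, golden; gr, greenish grey; axes start at 0). The apoEb, intestinal-type and chromosome 44 heart-type genes and the epidermis markers are lowest in number 1 of each group, whereas the chromosome 19 heart-type gene and the fibroblast markers are highest there.

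The adipocyte-type FABP genes were lower in GO in each numbered pair. LOC113091862, on an unplaced scaffold, gave 66.3, 68.3 and 51.5 FPKM in GO and 102, 198 and 90.4 FPKM in GR, with no overlap on FPKM. The log2 fold change was -0.87 ± 0.41, and -0.85 ± 0.26 in the block fit of edgeR (adjusted p = 0.325), short of 2-fold in both. LOC113119470 on chromosome 19 gave 22.9, 19.5 and 10.6 FPKM in GO and 33.7, 61.7 and 14.2 FPKM in GR, at -0.83 ± 0.64. The hormone adiponectin, a product of fat cells, had the same order of libraries as both genes in GR and was lower in GO under numbers 2 and 3 but not 1, at 38.6, 2.44 and 3.48 FPKM in GO and 24.3, 30.3 and 6.21 FPKM in GR. Among the GR libraries alone, other adipocyte markers were highest in number 3, where both FABP genes were lowest. In GR, hormone-sensitive lipase gave 6.56, 6.45 and 7.71 FPKM, complement factor D 266, 525 and 564 FPKM and CIDE-3 0, 0.150 and 0.205 FPKM. The part of fat cells in these FABP levels was not tested.

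Liver-type fabp1 on chromosome 30 and the brain-type gene LOC113120704 (0.15 ± 0.82 on the log2 scale) were the tested FABP genes with positive log2 fold changes. The fabp1 gene gave 7.07, 4.18 and 1.98 FPKM in GO and 3.78, 1.5 and 1.13 FPKM in GR, higher in GO under each number though the groups overlapped. Its log2 fold change was 1.24 ± 0.81, and 1.21 ± 0.35 in the block fit of edgeR (adjusted p = 0.318), where it was called. The brain-type genes, 4 of 6 tested, ran from -1.17 to 0.15 with no p under 0.05 in either fit, and the liver basic type had 3 counts in 1 library.

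StARD genes did not differ by direction: 5 of 12 tested were lower and 7 higher, with a median log2 fold change of 0.10 and no p under 0.05 without the block. StARD7, which carries phosphatidylcholine to mitochondria, was the most abundant. LOC113109702 on chromosome 10 gave 24.4, 16.2 and 9.35 FPKM in GO and 18.9, 6.47 and 10.5 FPKM in GR, with overlap, at a log2 fold change of 0.67 ± 0.65. Its presumed duplicate on chromosome 35, LOC113054133, gave 11.3, 5.75 and 6.71 FPKM in GO and 10.4, 7.78 and 6.38 FPKM in GR, at 0.15 ± 0.49. LOC113100235, annotated as a pseudogene on an unplaced scaffold, gave 18.0, 12.7 and 7.21 FPKM in GO and 14.0, 6.95 and 8.54 FPKM in GR, at 0.56 ± 0.57, and it may share reads with the other StARD7 genes.

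The chromosome 10 StARD7 gene stood at 0.832 to 2.82 times the chromosome 35 gene over the 6 libraries. StARD13 was expressed from 7 tested genes, 5 lower and 2 higher, with log2 fold changes between -0.56 and 0.15. Among them LOC113109954 was lower in every GO library than in any GR library on TMM-scaled counts, at -0.56 ± 0.35, and -0.61 ± 0.23 in the block fit of edgeR (adjusted p = 0.374). StARD3, which moves cholesterol between endosomes and other membranes, had 2 tested genes, both higher: LOC113062416 gave 3.55, 5.2 and 6.99 FPKM in GO and 2.11, 3.56 and 6.52 FPKM in GR, at 0.52 ± 0.37. StARD4, StARD5 and StARD9 genes all had means under 1 FPKM.

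Genes of the same product name on chromosomes whose numbers differ by 25 were paired. They were taken as copies from a genome duplication in the ancestor of goldfish and crucian carp, and were often unequal. Pairing used names and chromosome numbers alone, without sequence or gene order, and some genes fell in several pairs. SR-B1 was expressed from 1 copy only and apoEb mainly from the chromosome 16 copy, while the heart-type FABP copies changed order between libraries. The BCO1 copies had means of 1.67 and 2.12 FPKM but also changed order. The ratio of the chromosome 7 copy to the chromosome 32 copy was 2.17, 2.08 and 0.354 in GO libraries 1, 2 and 3 and 0.932, 0.595 and 0.332 in GR. The BCO1 and apoD pairs (LOC113042425 with LOC113065949) had log2 fold changes of opposite sign. So did the StARD13 pairs LOC113076246 with LOC113049547 (0.05 and -0.18) and LOC113109954 with LOC113054444 (-0.56 and 0.15). The differences within these pairs were not tested.

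Other genes of lipid transport and storage were nearly even in direction, with 55 tested genes lower and 51 higher, but more were called lower than higher. Of 170 such gene rows 106 were tested, with 4 called lower and 2 higher and a median log2 fold change of -0.02. These were 3.77% and 1.89% of the tested rows, beside 1.51% and 1.26% of all tested genes. With the replicate block 8 were called lower and 2 higher (7.55% and 1.89%, beside 2.63% and 2.42% of all genes). DGAT2, which makes triglyceride (LOC113109920), gave 4.63, 4.03 and 6.70 FPKM in GO and 12.9, 19.4 and 8.18 FPKM in GR, at a log2 fold change of -1.28 ± 0.39. Seipin, which shapes nascent lipid droplets (LOC113045120), gave 2.19, 5.94 and 10.03 FPKM in GO and 17.1, 12.0 and 21.4 FPKM in GR, at -1.45 ± 0.46. Neither gene overlapped between groups, on FPKM or on TMM-scaled counts.

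Monoglyceride lipase, which finishes the breakdown of triglyceride, was called from both LOC113080494 (-1.24 ± 0.43) and LOC113107985 (-1.35 ± 0.50). The genes called higher in edgeR were the lipid-sensing nuclear receptor PPAR-delta (LOC113096613, 1.23 ± 0.45) and the phospholipid transfer protein C2CD2L (c2cd2l, 1.35 ± 0.55). LIMP-2, a lysosomal relative of SR-B1 and CD36, was called lower from 4 genes on chromosome 46 with the replicate block alone. Of these, LOC113064485 gave 12.3, 8.13 and 2.96 FPKM in GO and 28.4, 47.4 and 12.6 FPKM in GR, at -1.81 in that fit against -1.64 ± 0.77 without it.

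The file's pathway annotation put 33 of the 105 carriers in PPAR signalling, a pathway in which lipid-activated nuclear receptors switch on fatty acid handling genes. These were the 18 FABP genes, 9 apolipoproteins, 4 perilipins and both CD36 genes. The median over the other 154 tested genes of the pathway was -0.11 on the log2 scale, and 1 of them was called lower and 1 higher.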

How the data were processed

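Skin mRNA of 3 golden and 3 greenish grey libraries was analysed, grouped by the library titles. The authors deposited 1 table with raw counts and FPKM values for 83088 gene rows, and its 0.0001 FPKM, which stood at all 237173 values with a count of 0 and nowhere else, was set to 0. Per the labels, a SMARTER kit for mRNA-seq was used on total RNA. Aligner, counter and strandedness are not given in the sources used here, so reads of near-identical copies, overlapping genes and antisense genes cannot be told apart. FPKM follow the deposited gene lengths and library totals, and counting error is small for the abundant genes at 51493103 to 67595616 counts per library but not for genes with few counts. Product names came from the table, and coordinates and gene types from RefSeq on assembly ASM336829v1, where the start of every tested carrier matched.

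Counts were tested with edgeR 4.0.16 (glmQLFit and glmQLFTest, TMM, R 4.3.3, two-sided) over the 26421 genes averaging 1 FPKM or more, with Benjamini-Hochberg adjustment. This test gives no standard error. The SE printed with edgeR values is approximate, the absolute log2 fold change divided by the square root of the F statistic. The test was checked on simulated counts drawn independently for each library. That check does not cover deviations shared by libraries of the same number. Named were all called carriers, all tested oxygenase and receptor genes, and the 3 tested genes with the highest mean FPKM of each other family (19 genes), plus the called genes of the lipid transport and storage list. Others are named because their values were seen. The members and all gene and marker lists were chosen with earlier results of these data known. Libraries of the same number correlated in their deviations from the group means (r = 0.674, 0.262 and 0.696 across genes, at most 0.0641 for different numbers). Deviations within a group of 3 sum to 0, so higher values for same numbers go with lower ones for different numbers by construction. Genes are also not replicates of the libraries. What a number marks is not in the labels, so the replicate block rests on this check alone, which cannot establish pairing.

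Alternatives were DESeq2 1.42.0 (test and size factors), limma 3.58.1 on log2(FPKM + 0.1, 1 or 5), other filters (none, 0.1 or 5 FPKM), the log2 muscle share as a covariate, the replicate block and leaving out each library. Leaving out both libraries numbered 1, with and without the block, was added after seeing the data. Tables were handled in Python 3.11.15 with pandas 2.3.3. No column of fold changes or p-values made by the authors was used, and promoter and protein sequences were not used here.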

Additional observations from a re-analysis of the deposited data

How the results depend on the processing

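Over 18 alternatives the 19 named genes gave 336 log2 fold changes, of which 265 kept their direction and their side of the p threshold of 0.05, 31 lost and 12 gained a p under 0.05, and 28, of 9 genes, changed sign. All tested perilipins were lower in GO under each of the 18. Genes with few counts, such as several apoD genes, have wide counting error, and each group held 3 libraries. The cause of the changes below was not tested, except that filters change the genes tested.

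Genes past 2-fold at p under 0.05 numbered 731, against 1335 with the replicate block, 1419 with the block and without both libraries numbered 1, 1880 with the muscle share, 1642 with no filter, 1291 at 0.1 FPKM, 295 at 5 FPKM, 182 in limma on log2(FPKM + 5), and 494 to 1422 as single libraries were left out. In limma on log2(FPKM + 1) the split was 159 higher and 366 lower, against 332 and 399. Adjusted p under 0.05 was reached by 205 genes in DESeq2 and 1 with the block. The 3 called carriers became 7 with the block, with the block and without both libraries numbered 1, and with the muscle share, 5 with no filter, 1 at 5 FPKM and in limma on log2(FPKM + 1) and log2(FPKM + 5), and 2 to 5 as single libraries were left out. The 7 held all 3 of them with the block and with the muscle share, and 2 with the block and without both libraries numbered 1. None of the 3 was called without GR number 1 or without both libraries numbered 1.

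Family medians of the log2 fold change moved as follows. Perilipins gave -0.93, -0.76 and -0.46 in limma with 0.1, 1 and 5 added, -0.93 with the muscle share and -0.95 to -0.67 as single libraries were left out. Apolipoproteins, at -0.64 in edgeR without the block, gave 0.084 at 0.1 FPKM, 0.031 at 5 FPKM and 0.062 with no filter. They gave -0.96 without both libraries numbered 1 and -1.02 to -0.14 as single libraries were left out. Oxygenases were at -0.32 in edgeR without the block and at 0.0004 with it. StARD gave -0.13 and -0.083 in limma with 0.1 and 1 added, 0.52 at 5 FPKM, -0.38 with the muscle share, -0.054 and -0.065 without both libraries numbered 1 (with and without the block) and -0.39 to 0.27 as single libraries were left out.

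Signs changed with the muscle share as a covariate for LOC113044451 (0.53), LOC113054133 (-0.38), LOC113106487 (-0.21), LOC113109702 (-0.12), LOC113115538 (0.14) and LOC113100235 (-0.19). With the replicate block they changed for LOC113115538 (0.13) and LOC113116734 (-0.26, and -0.011 also without both libraries numbered 1). LOC113116734 gave -0.40, -0.40 and -0.39 and LOC113054133 gave -0.082, -0.071 and -0.044 in limma with 0.1, 1 and 5 added. Without both libraries numbered 1, LOC113054133 gave -0.13, and -0.12 with the block. As single libraries were left out, LOC113044451 ran from -1.08 to 0.16, LOC113049328 from -0.44 to 0.26, LOC113054133 from -0.44 to 0.45, LOC113059713 from -0.14 to 0.59, LOC113106487 from -0.058 to 0.73, LOC113115538 from -1.06 to 1.33 and LOC113116734 from -0.95 to 0.49. Past 2-fold, the block changed the call of LOC113119319 and of no other of the 19 named carriers.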
